A study of Arabidopsis thaliana with 24 samples.

Results

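The second day of darkness in leaves of the ahk3/ore12 mutant of Arabidopsis thaliana was followed here across all genes, by setting the arrays taken at 2 days against those taken at 1 day. The comparison uses 4 of the 24 arrays of the study, 2 at 2 days after treatment (DAT) and 2 at 1 DAT, chosen by the genotype and time in their labels. The study profiled detached leaves that senesced in the dark. The full set of arrays covers ahk3/ore12, ein2/ore3 and the wild type Columbia (Col) at 0, 1, 2 and 3 DAT, with 2 biological replicates in each of 12 groups. Plants of all 3 genotypes were grown for about 21 days in 16 h of light and 8 h of dark. Rosette leaves of a fixed position were cut off about 12 days after emergence and floated in darkness on 3 mM MES buffer, so that every dark-treated group also shares the wound of detachment. The ahk3/ore12 mutant carries ore12-1, a single gain-of-function allele of the cytokinin receptor AHK3. The ein2/ore3 mutant carries ore3-1, also called ein2-44, a loss-of-function allele of the ethylene signalling gene EIN2. Each mutant was represented by 1 allele, so allele and genotype cannot be told apart.

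AHK3 is a membrane histidine kinase that binds cytokinin and passes phosphate through histidine phosphotransfer proteins (AHPs) to the type-B response regulators, which are transcription factors. Type-A response regulators are among the genes these factors switch on, and they feed back to damp the signal. Cytokinin is known to hold back leaf senescence, and AHK3 is the receptor best known for this role in leaves. A leaf placed in the dark loses light-driven carbon supply, degrades its chlorophyll and chloroplast proteins and recycles their nitrogen, while ethylene speeds these changes.

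Levels are log2 intensities of 32627 genes, so that a change of 1 is a doubling. The ahk3/ore12 replicates correlated across genes at 0.994 (2 DAT) and 0.989 (1 DAT), with median replicate differences of 0.14 and 0.19. These differences ranged between 0.13 and 0.30 over the 12 groups. The widest, 0.30, was that of Col at 1 DAT, where the replicates correlated at 0.965, and every second-day step in Col uses this group. The second ein2/ore3 array at 2 DAT stood apart from the other 23 arrays. Its median was 8.91, against 9.02 to 9.16 on the others, and list medians and changes of ein2/ore3 that rest on it are given with and without it, while counts of its calls were made with both arrays. AHK3 itself, listed as HK3, read 13.12 and 12.98 in ahk3/ore12 at 2 DAT and 12.61 and 12.91 at 1 DAT. Its change of 0.29 (SE 0.11) did not pass the test (adjusted p = 0.213, limma), and an activating point mutation cannot be seen by probe intensity. The mesophyll marker RBCS1A, a small subunit of Rubisco, lay at 15.58 and 15.64 at 2 DAT and at 15.91 and 16.00 at 1 DAT, whereas 7 markers of root hairs, seeds and flowers lay between 5.32 and 9.43. All 3 mesophyll markers had a negative change, with a median of -0.345. Of these CA1 alone was called, with a change of -0.955 (-1.265 to -0.645 with an array left out). The 5 markers of guard, companion and epidermal cells had 2 positive and 3 negative changes, a median of -0.11 and 0 calls. In whole leaves, fewer cells of a type and less RNA per cell cannot be told apart. The arrays do not keep strand, so overlapping genes cannot be told apart either.

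On the second day 736 of the 32627 genes (2.26%) changed in ahk3/ore12 at a false discovery rate (FDR) under 0.05. Of these, 487 (1.49%) rose and 249 (0.763%) fell, and 288 (0.883%) moved by at least 1 on the log2 scale, 184 (0.564%) higher and 104 (0.319%) lower. The median change of all genes was -0.035 and the median size of a change was 0.22, while the 487 risers had a median of 0.85 and the 249 fallers a median of -0.93. All 736 had both arrays at 2 DAT on one side of both arrays at 1 DAT, a pattern that 55.7% of all genes showed. With the replicate number as a block, which is also the slide, the count was 1767, made up of 1301 higher and 466 lower and including all 736. The count depended on single arrays. It was 181 without the first ahk3/ore12 array at 1 DAT, 111 without the second, 146 without the first array at 2 DAT and 299 without the second. In the first 3 of these fits rises outnumbered falls, but without the second array at 2 DAT 136 genes were higher and 163 lower, so that the balance of the calls turned. Fitted on the 4 arrays alone, 5 genes passed, although 6434 had an unadjusted p under 0.05.

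The largest rises were led by a peroxidase family gene, AT4G30170. It read 12.06 and 12.19 at 2 DAT against 7.32 and 7.38 at 1 DAT, so that both later arrays stood far above both earlier ones. The rise was 4.78 (SE 0.34, adjusted p = 5.43e-06, limma), or 27.4-fold. In the other genotypes the same step was 2.03 in ein2/ore3 (2.51 without the array that stood apart) and 3.90 in Col. PELPK1, which encodes a cell wall protein with repeated short peptides, stood at 10.71 and 10.62 at 2 DAT and 7.42 and 7.58 at 1 DAT, a rise of 3.17 (SE 0.20, adjusted p = 2.11e-06). RWP1, the enzyme that adds ferulate to suberin, read 10.08 and 9.95 against 7.22 and 6.42, and rose by 3.20 (SE 0.25, adjusted p = 1.29e-05). The basic chitinase HCHIB, a defence protein, read 12.72 and 12.79 against 10.42 and 10.14, a rise of 2.48 (SE 0.30, adjusted p = 7.44e-04). None of these 4 genes had overlapping arrays, but the rule that named the largest rises and falls required this of every gene. Each of the 4 genes passed the test with any 1 of the 4 arrays left out.

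**Figure D1:**
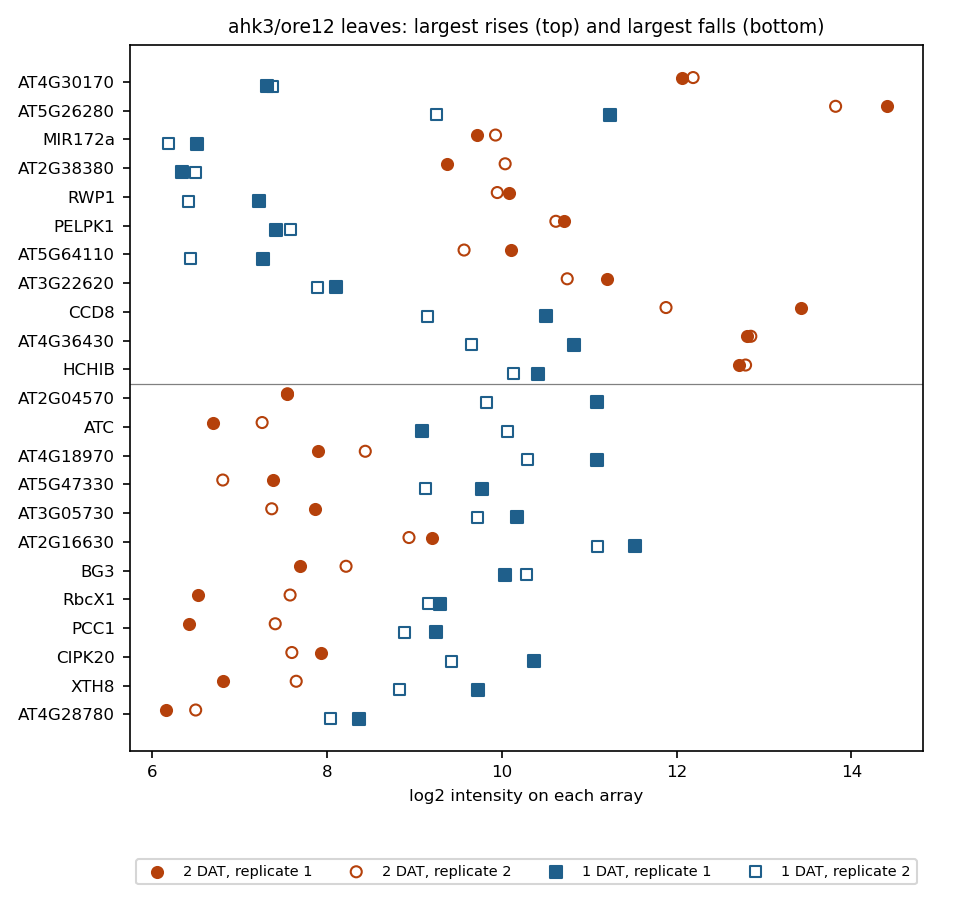
Log2 intensity (horizontal axis) of 11 genes among the 12 largest rises and of the 12 with the largest falls in ahk3/ore12 leaves, with circles for the arrays at 2 DAT, squares for those at 1 DAT, filled symbols for replicate 1 and open symbols for replicate 2. For every gene the circles and squares do not overlap, because the genes were chosen by that rule. AT4G30170 shows the widest gap with 12.06 and 12.19 at 2 DAT against 7.32 and 7.38 at 1 DAT.

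Some of the largest rises had wide replicate spread. CCD8, a carotenoid cleavage dioxygenase that makes the precursor of strigolactones, read 13.42 and 11.88 at 2 DAT against 10.51 and 9.15 at 1 DAT. Its arrays did not overlap, but the replicates differed by more than 1 on both days, and the rise of 2.82 (SE 0.49, adjusted p = 0.00952, limma) was lost without the first array at 2 DAT or the second at 1 DAT. AT5G26280 depended on the same arrays, with 14.41 and 13.82 against 11.24 and 9.25 and a rise of 3.87 that was lost without either of them. AT5G64110 rose by 2.99, from values of 10.11 and 9.57 at 2 DAT and 7.27 and 6.44 at 1 DAT, and failed the test whichever of the 4 arrays was left out. A further 3 of the largest risers were AT2G38380, AT3G22620 and AT4G36430, which rose by 3.29, 2.98 and 2.59 and passed whichever array was left out.

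The falls were smaller and less stable. ATC, a relative of the flowering repressor TFL1, had levels of 6.70 and 7.26 at 2 DAT against 9.09 and 10.07 at 1 DAT, and fell by 2.60 (SE 0.33, adjusted p = 0.00112, limma). RbcX1, a chaperone in the assembly of Rubisco, stood at 6.53 and 7.58 against 9.29 and 9.16 and fell by 2.17 (SE 0.28, adjusted p = 0.00119). Both genes stayed past the threshold with any 1 of the 4 arrays left out, which held for no other of the 12 largest falls. CIPK20, a protein kinase that works with calcineurin B-like calcium sensors, read 7.93 and 7.60 against 10.37 and 9.43. It fell by 2.14 (adjusted p = 0.0148), but passed in only 1 of the 4 fits with an array left out. BG3, a glucanase of the pathogenesis-related kind, read 7.69 and 8.22 against 10.04 and 10.28, and its fall of 2.21 (adjusted p = 0.0320) passed in none of those fits. The remaining 8 were AT2G04570, the GDSL-type lipase family gene AT4G18970, AT5G47330, AT3G05730, AT2G16630, PCC1, XTH8 and AT4G28780, with changes between -2.92 and -1.88. Of these, AT4G18970 was lost only without the first array at 2 DAT, while AT5G47330 and AT3G05730 were lost whichever array was left out.

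Many DNA replication genes fell on this day. The list was drawn up after the values were seen, so its counts are a description. Of 45 genes, 19 fell and 0 rose in the limma fit, beside 0.763% and 1.49% of all genes. At an unadjusted p under 0.05, 29 were lower and 2 higher, and the median change was -0.83 against -0.035 for all genes. The change was negative in 36 and positive in 9. RPA70D, a large subunit of the complex that coats single-stranded DNA, read 8.92 and 9.28 at 2 DAT against 10.79 and 10.74 at 1 DAT. Its fall of 1.67 (SE 0.19, adjusted p = 3.89e-04) held with any 1 array left out. PCNA1, the sliding clamp of DNA polymerase, read 9.09 and 9.47 against 10.68 and 10.54 and fell by 1.33 (adjusted p = 0.0038). In both genes every array at 2 DAT lay more than 1 below every array at 1 DAT. MCM5, a subunit of the replicative helicase, read 10.12 and 10.32 against 11.29 and 11.35, a fall of 1.1 (adjusted p = 0.00224). ORC1B, of the origin recognition complex, read 8.48 and 8.59 against 9.42 and 9.33, and fell by 0.84 (adjusted p = 3.74e-04). On the same list DUT1, which removes dUTP, stood at 9.94 and 10.08 against 11.23 and 11.20 and fell by 1.21 (adjusted p = 1.23e-04), and the ribonucleotide reductase genes RNR1 and TSO2 fell by 1.01 and 1.13.

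Further replication genes that fell were CDC6, CDT1A, CDC45, MCM6, MCM10, PRL (which encodes MCM7), ETG1, ORC2, RPA70B, PCNA2, EMB2813 and ICU2, the catalytic subunit of polymerase alpha. MCM2, MCM3 and MCM4 had changes of -1.19, -1.23 and -1.02 that missed the threshold, with adjusted p between 0.0571 and 0.0686. The 2 replicates gave list medians of -0.91 and -0.74. With the replicate block 26 genes of the list passed, and with an array left out between 5 (without the first at 2 DAT) and 9 (without the second). In ahk3/ore12 the median level of the list ran through 8.77 and 8.76 at 0 DAT, 9.84 and 9.54 at 1 DAT, 9.04 and 9.16 at 2 DAT, and 8.52 and 8.43 at 3 DAT. The levels were thus highest at 1 DAT, and these steps share the arrays at 1 and 2 DAT. The same second-day step had a median of -0.96 in ein2/ore3 (-0.82 without the array that stood apart) and -0.94 in Col. Histone genes, a list made in the same way, had 4 of 21 that fell, among them HTA6, an H2A gene, by 1.39, but at most 2 passed with an array left out.

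**Figure D2:**
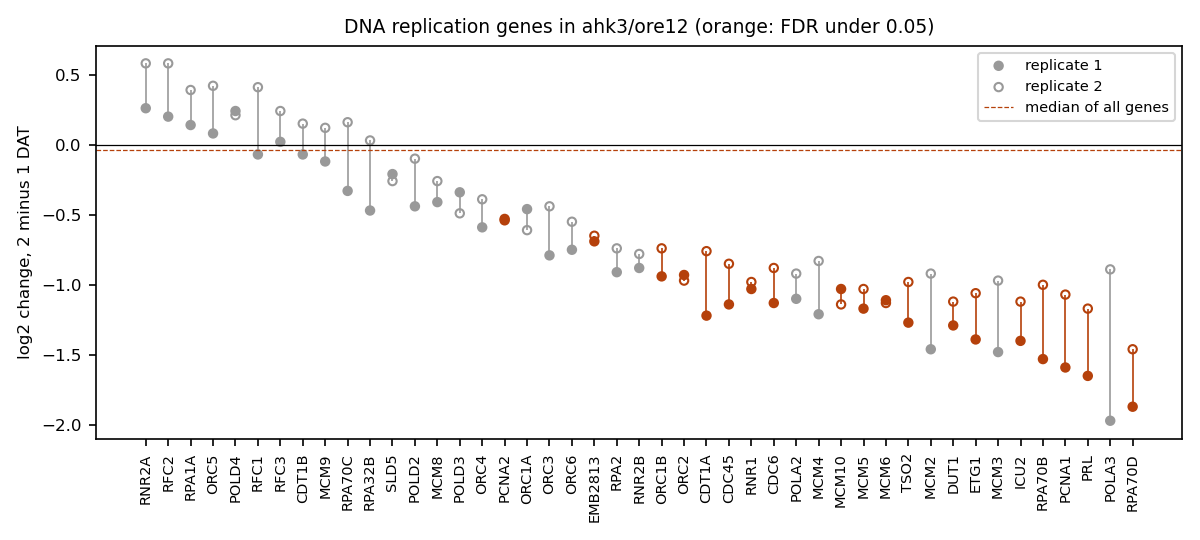
Log2 change between 2 and 1 DAT (vertical axis) of the 45 DNA replication genes in ahk3/ore12, with filled symbols for replicate 1, open symbols for replicate 2 and orange for genes at an FDR under 0.05. Genes run from the highest to the lowest mean change, with RPA70D last. The 19 genes that fell are mixed with genes that were not called, and the dashed line marks the median of all genes, -0.035.

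Several growth-related cell wall genes also fell. Over the 46 lists of genes by pathway, 38 of 591 genes (6.43%) passed, 11 higher and 27 lower, beside 2.26% of all genes called, 1.49% higher and 0.763% lower. These lists and their members were chosen with earlier results of these data known, so the counts are a description. With the replicate block 70 passed. With 1 of the 4 arrays left out the 38 became 3 (without the first at 2 DAT), 7, 10 or 25 (without the second at 2 DAT). All 16 expansins, proteins that loosen the wall, had a negative change with a median of -0.85, and 3 of them fell. The replicates were uneven, with list medians of -1.025 in the first and -0.405 in the second. EXPA1 read 11.92 and 12.43 at 2 DAT against 13.31 and 13.32 at 1 DAT and fell by 1.14 (SE 0.24, adjusted p = 0.0240, limma), while EXPA15 fell by 1.12 and EXPA9 by 0.94. The same step had an expansin median of -1.19 in Col, with 9 called lower and 1 higher. In ein2/ore3 it was -0.8375 (-0.6975 without the array that stood apart), with 8 called lower. In ahk3/ore12 between 0 and 6 expansins passed with an array left out, the 6 without the second array at 2 DAT. Of 15 xyloglucan endotransglucosylases, which cut and rejoin wall xyloglucan, 4 fell, namely XTH8, XTH33, XTH17 and XTH16. XTH33 read 9.56 and 9.94 against 11.20 and 11.32, a fall of 1.51 (adjusted p = 0.0196). The 4 became 0 to 3 with an array left out. The list median was -0.335, with -0.5 in the first replicate and -0.14 in the second. Fasciclin-like arabinogalactan proteins, a list added after values were seen, had 3 of 19 that fell (7 with the block, 0 to 2 with an array left out). FLA2 was the largest of them, with a fall of 1.75. Among 13 Aux/IAA genes, repressors of the auxin response that auxin itself induces, only IAA19 fell. It read 7.54 and 8.59 against 9.90 and 9.82, a fall of 1.79 (SE 0.34, adjusted p = 0.0138), and the list had a median of -0.44. This was -0.76 in the first replicate and -0.12 in the second. In Col the list median was -1.245, with 9 called lower. In ein2/ore3 it was -0.455 (-0.31 without the array that stood apart), with 3 called lower. EXPA1 and IAA19 passed only without the second array at 2 DAT among the 4 left-out fits, and XTH33 and FLA2 passed in none.

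Changes of chloroplast genes were small and mostly negative. All 24 nuclear genes for photosystem core subunits had a negative change, with a median of -0.35. PSAK, PSBTN and PSBQA, small subunits of the photosystems, fell, and 13 of the 24 had an unadjusted p under 0.05. PSBQA read 14.39 and 14.53 at 2 DAT against 14.98 and 15.13 at 1 DAT, a fall of 0.60 (adjusted p = 0.00837, limma). With the block 5 subunits passed, and 0 to 3 with an array left out. The same step had a median of -0.55 in ein2/ore3 (-0.60 without the array that stood apart), with 13 called lower, and -0.92 in Col, with 22 called lower. Of the 21 genes of the light-harvesting antenna, 0 passed in the limma fit, 7 being lower and 1 higher at an unadjusted p under 0.05, and the median was -0.20. In Col the antenna median was -0.79. SBPASE, a phosphatase of the Calvin cycle, was the only 1 of 18 genes of that cycle to fall, with 9.62 and 9.87 against 10.68 and 10.52, a fall of 0.85 (adjusted p = 0.0245). The SBPASE call was lost whichever of the 4 arrays was left out. Of these 18 genes 11 fell in ein2/ore3 and 13 in Col.

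In the remaining chloroplast and photorespiratory lists all calls were falls, where 0.763% of all genes fell. Of 25 chloroplast ribosomal protein genes, 3 fell (RPL15, PRPL28 and PSRP2), 7 with the block and at most 1 with an array left out, and the median was -0.27. RPL15 read 11.74 and 11.81 at 2 DAT against 12.65 and 12.59 at 1 DAT. Cytosolic ribosomal protein genes had a median of -0.085, with 0 of 23 past the test in limma and 1 higher and 2 lower at an unadjusted p under 0.05. GSA2 and LIN2, enzymes of tetrapyrrole synthesis, fell by 0.61 and 0.41, as 2 of 23 genes on that list (4 with the block). The 10 photorespiration genes had 4 positive and 6 negative changes with a median of -0.095. Of these SHM1, the mitochondrial serine hydroxymethyltransferase, fell by 1.16 with 11.19 and 11.56 against 12.54 and 12.52 (adjusted p = 0.00575). The 16 chloroplast NDH subunit genes, a list added after values were seen, had 7 positive and 9 negative changes with a median of -0.053, and PnsL1 and PnsB3 fell by 1.12 and 0.75. Starch breakdown had 3 of 16 genes that fell, with a median of -0.29. SEX4, a phosphoglucan phosphatase, read 9.11 and 9.84 against 10.84 and 10.93 and fell by 1.41 (adjusted p = 0.00679), PHS2, a glucan phosphorylase, fell by 1.23, and the amylase AMY3 fell by 0.97 and passed with any 1 array left out. Of the others RPL15 was lost only without the first array at 2 DAT, SEX4 without that array or the second at 1 DAT, SHM1 and PHS2 kept their call in 1 of the 4 left-out fits, and GSA2 and LIN2 in none.

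**Figure D3:**
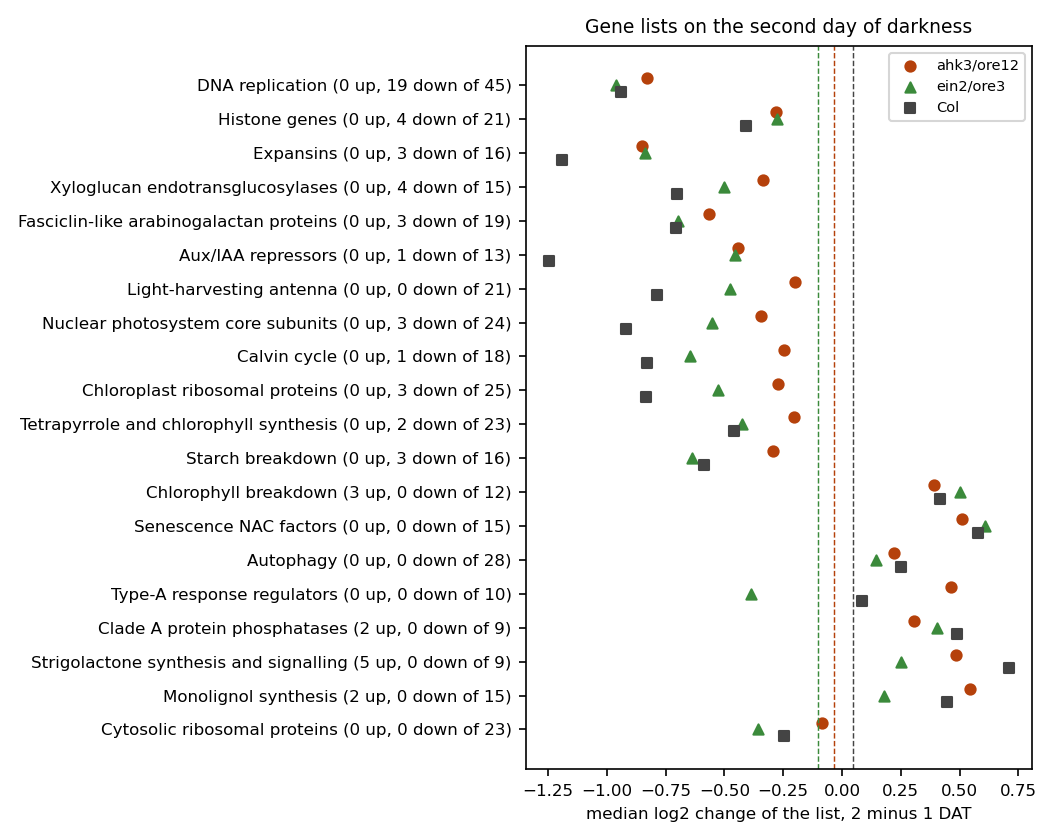
Median log2 change between 2 and 1 DAT (horizontal axis) of 20 gene lists in ahk3/ore12 (circles), ein2/ore3 (triangles) and Col (squares), with the number of members called higher and lower in ahk3/ore12 beside each name and dashed lines at each genotype's median over all genes. For the photosystem core subunits the medians were -0.35 in ahk3/ore12, -0.55 in ein2/ore3 and -0.92 in Col. All ein2/ore3 values shown include the array that stood apart.

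Enzymes of chlorophyll breakdown rose in 3 cases of 12, beside 1.49% of all genes. MES16, which demethylates chlorophyll catabolites, read 11.65 and 11.32 at 2 DAT against 10.30 and 10.09 at 1 DAT, a rise of 1.29 (SE 0.27, adjusted p = 0.0226, limma). HCAR, which reduces 7-hydroxymethyl chlorophyll a, read 11.66 and 11.77 against 10.80 and 10.55 and rose by 1.04 (SE 0.12, adjusted p = 6.88e-04). It was the 1 member that passed with any array left out, and MES16 passed in none of those fits. TIC55 rose by 0.43. Of the other 9 genes on the list, SGR1, a magnesium dechelatase that starts the degradation, read 12.83 and 12.51 against 12.10 and 12.06, with a change of 0.59 that missed the threshold (adjusted p = 0.0535). With the block 6 of the 12 passed, 5 higher and 1 lower. The list median of 0.39 lay beside 0.50 in ein2/ore3, with or without the array that stood apart, and 0.42 in Col. More members were called there, 8 higher and 1 lower in ein2/ore3 and 6 higher and 1 lower in Col.

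Of the senescence transcription factors 1 passed the test. All 15 senescence NAC factors had a positive change, between 0.23 and 1.09, with a median of 0.51. In limma 0 of them passed, 10 were higher and 0 lower at an unadjusted p under 0.05, and 2 passed with the block. ORE1, a NAC factor that promotes leaf senescence, read 13.09 and 12.90 at 2 DAT and 12.20 and 12.35 at 1 DAT, a difference of 0.72 (adjusted p = 0.235). The 9 WRKY factors on the senescence list had 5 positive and 4 negative changes with a median of 0.11. Of these only WRKY57 rose, with 10.49 and 10.14 against 9.19 and 8.79 (adjusted p = 0.0219), and it was lost whichever array was left out. Among 28 autophagy genes 27 had a positive change and the median was 0.22. Again 0 passed in limma, against 3 with the block, and 9 were higher and 0 lower at an unadjusted p under 0.05.

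In the cytokinin pathway, to which the mutated receptor belongs, the genes that passed the test all rose. Over all genes 2.26% passed and 1.49% rose. Of 7 cytokinin oxidases 0 passed, with 1 higher and 1 lower at an unadjusted p under 0.05. The 9 receptors and phosphotransfer proteins had 5 positive and 4 negative changes with a median of 0.065, and 1 rose. AHP1, a phosphotransfer protein downstream of the receptors, read 8.56 and 9.09 at 2 DAT against 7.73 and 7.43 at 1 DAT, and rose by 1.25 (SE 0.29, adjusted p = 0.0406, limma). The call was lost whichever of the 4 arrays was left out. In the other genotypes AHP1 changed by -0.81 in ein2/ore3 (-0.53 without the array that stood apart) and -0.40 in Col, but the differences from ahk3/ore12 did not pass (adjusted p = 0.102 against ein2/ore3 and 0.120 against Col). Of 7 type-B response regulators, with a median change of 0.055, ARR11 and ARR2 (listed as RR2) rose, by 0.71 and 0.46. The 6 cytokinin response factors had 2 positive and 4 negative changes, with a median of -0.088. CRF6 was the only one called and read 12.00 and 11.97 against 10.87 and 10.44 and rose by 1.33 (SE 0.26, adjusted p = 0.0165). With 1 of the 4 arrays left out CRF6 and ARR2 passed in 1 fit each and ARR11 in none.

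All 10 type-A response regulators had a positive change, between 0.16 and 1.02, with a median of 0.47. In limma 0 of the 10 passed, 4 were higher and 0 lower at an unadjusted p under 0.05, and 2 passed with the block. ARR5 came nearest, with 11.24 and 11.09 at 2 DAT and 10.60 and 9.70 at 1 DAT, a difference of 1.01 (adjusted p = 0.0685). The levels of these 10 genes set ahk3/ore12 apart from the other genotypes at both times. Their median level was 10.32 and 10.14 at 2 DAT, beside 9.95 and 9.35 at 1 DAT, in ahk3/ore12. In ein2/ore3 it was 6.84 and 6.74 at 2 DAT and 6.83 and 7.09 at 1 DAT. Col had 7.15 and 7.30 at 2 DAT and 6.92 and 7.15 at 1 DAT. On no array of those 8 did the median reach the lowest of the 4 ahk3/ore12 values. Before darkness, at 0 DAT, it was 10.59 and 10.26 in ahk3/ore12, 9.63 and 9.85 in ein2/ore3 and 10.46 and 10.29 in Col. These level differences were not tested. The change on the second day differed from that in ein2/ore3 or Col for 0 of the 10 genes at an FDR under 0.05.

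Among genes of abscisic acid signalling, the protein phosphatase HAI1 read 9.90 and 9.91 at 2 DAT against 8.18 and 7.16 at 1 DAT. This phosphatase, which acts against abscisic acid responses and is itself induced by the hormone, rose by 2.23 (SE 0.33, adjusted p = 0.00311, limma). HAB1, of the same clade, rose by 0.54, and the other 7 of the clade did not pass. AFP1 and AFP2, which bind the factor ABI5, rose by 1.51 and 0.60. The 13 genes of abscisic acid synthesis and breakdown had a median of 0.34 but 0 passed in limma, 3 being higher and 0 lower at an unadjusted p under 0.05. Of the jasmonate synthesis genes AOC2, an allene oxide cyclase, fell by 1.07, with 11.20 and 11.41 against 12.55 and 12.21. In the circadian clock the MYB-like factor RVE1 rose by 1.12 and PRR5 fell by 0.55. HAI1 was lost only without the second array at 1 DAT, AOC2 without the first array of either day, and HAB1 and RVE1 whichever array was left out, while PRR5 passed only without the second at 1 DAT.

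Lists drawn up after the values were seen describe further groups among the risers. Over all genes 1.49% rose and 0.763% fell. Of 9 strigolactone genes 5 rose, which were the synthesis genes CCD8, CCD7 and MAX1 (listed as CYP711A1) and the repressors SMXL6 and SMXL7. CCD7 read 9.79 and 8.89 at 2 DAT against 7.49 and 7.71 at 1 DAT and rose by 1.74 (SE 0.33, adjusted p = 0.0140, limma). The list median was 0.485 in ahk3/ore12 and 0.71 in Col, where 6 of the 9 genes rose. In ein2/ore3 it was 0.25 (0.32 without the array that stood apart), and 3 rose. In ahk3/ore12 the 5 strigolactone genes became 0 without the first array at 2 DAT and 3 without the second. All 15 monolignol synthesis genes, which make the units of lignin, had a positive change with a median of 0.55. PAL4 rose by 1.60 and the cinnamoyl-CoA reductase CCR1 by 0.66, and 4 passed with the block, although 1 at most passed with an array left out. Of 14 laccases, oxidases that can join monolignols, LAC5 read 9.66 and 9.45 against 7.20 and 7.35 and rose by 2.28 (SE 0.27, adjusted p = 5.69e-04). LAC12 read 9.98 and 9.73 against 7.60 and 7.97 and rose by 2.07, and both passed with any 1 array left out. DIR6, a dirigent protein that steers the coupling of such units, rose by 2.21 with 12.40 and 12.50 against 10.57 and 9.90. In the suberin list only RWP1 of 16 genes passed. The aquaporin PIP2;5 read 10.90 and 11.04 against 9.11 and 8.85, a rise of 1.99 (adjusted p = 3.74e-04), as the only 1 of 27 aquaporin genes that passed. Of 120 MYB factors 7 rose and 0 fell, with 19 higher and 6 lower at an unadjusted p under 0.05. MYB49 read 9.17 and 9.20 against 7.87 and 7.53, and MYB45 read 9.66 and 9.18 against 7.63 and 7.51. With an array left out 1 to 4 MYB factors passed, MYB49 each time.

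The classes of non-coding genes differed in what was called, and no difference between classes was tested. Of 148 genes annotated as ncRNA 12 rose (8.11%) and 0 fell in limma, with 31 higher and 3 lower at an unadjusted p under 0.05. Of 26490 protein-coding genes 464 rose (1.75%) and 245 fell (0.925%). Of 146 primary transcripts of miRNA genes 5 rose (3.42%) and 0 fell, with 18 higher and 0 lower unadjusted and a median change of 0.06. Their median level was 5.145 at 2 DAT and 5.04 at 1 DAT. The lowest intensities on the arrays, apart from the one that stood apart, were 4.54 to 4.64. A fall could therefore hardly be measured for many of these genes. MIR172a, whose product targets AP2-type flowering repressors, read 9.72 and 9.93 at 2 DAT against 6.51 and 6.19 at 1 DAT and rose by 3.48 (SE 0.25, adjusted p = 5.43e-06). The neighbouring pseudogene AT2G28053 read 9.52 and 10 against 7.49 and 7.50, and without strand the transcripts of close neighbours cannot be told apart. MIR167a, which targets auxin response factors, read 10.09 and 10.40 against 8.44 and 8.29, a rise of 1.88 (adjusted p = 0.00113). MIR156c, whose product targets SPL factors, read 8.85 and 8.94 against 7.46 and 7.40 and rose by 1.47 (adjusted p = 0.00251). MIR159b rose by 1.65 and MIR414 by 1.08, and the 5 miRNA genes became 3 with any 1 array left out. TAS3, the precursor of small RNAs against auxin response factors, read 7.59 and 7.51 against 6.84 and 6.92, a rise of 0.67 that only just passed (adjusted p = 0.0495). The arrays measure precursors, not mature miRNAs. Of 187 lncRNA genes 4 rose (2.14%) and 0 fell. Among 169 tRNA genes 0 passed in limma in either direction, while 0 were higher and 42 lower at an unadjusted p under 0.05.

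The same step called 2583 genes (7.92%) in ein2/ore3 and 2644 (8.10%) in Col. Of the 487 genes that rose in ahk3/ore12, 198 (40.7%) also rose in ein2/ore3 and 228 (46.8%) in Col, where the background of rises was 1.70% and 2.90% of all genes. These make up 35.7% of the rises in ein2/ore3 and 24.1% of those in Col. Of the 249 that fell, 213 (85.5%) also fell in ein2/ore3 and 208 (83.5%) in Col, against backgrounds of 6.22% and 5.20%. They made up 10.5% of the 2028 falls in ein2/ore3 and 12.2% of the 1698 falls in Col. The falls of the other genotypes were therefore mostly not called in ahk3/ore12, where the 1698 genes that fell in Col had a median change of -0.29. The changes of all genes correlated across genes at 0.329 with those of ein2/ore3 and at 0.411 with those of Col. Genes are not independent replicates, and all arrays of one replicate number share a slide.

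A direct contrast asked where the second-day change differed between ahk3/ore12 and Col. It differed for 148 genes (0.454%), in 122 (0.374%) being higher in ahk3/ore12 and in 26 (0.0797%) lower. With the replicate block the count was 304. The 122 had a median change of -0.025 in ahk3/ore12, -0.41 in ein2/ore3 (-0.33 without the array that stood apart) and -1.40 in Col, and 113 of them fell in Col. The 26 had medians of 0.17 in ahk3/ore12, 0.04 in ein2/ore3 (0.17 without that array) and 2.14 in Col, and 25 of them rose in Col. These medians are over genes chosen for the difference, and single genes among the 122 changed by -1.72 to 2.27 in ahk3/ore12. The count fell to 7 without the second ahk3/ore12 array at 2 DAT, 13 without the second at 1 DAT, 31 without the first at 1 DAT, 10 without the first Col array at 2 DAT, 48 without the second at 1 DAT and 73 without the second at 2 DAT. Fitted on the 8 arrays alone it was 0 in limma, with 3167 at an unadjusted p under 0.05.

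Some auxin-related genes were among the 148. By list, 1 of 16 SAUR genes, 2 of 13 Aux/IAA genes and 2 of 7 PIN genes differed from Col. All were higher in ahk3/ore12, as were 0.374% of all genes. The SAUR and PIN lists were added after values were seen. The SAUR list holds only part of that family and leaves out AT4G38860. SAUR23, a small auxin-up RNA gene, read 7.98 and 9.88 at 2 DAT, beside 8.53 and 9.43 at 1 DAT, in ahk3/ore12, against 5.36 and 5.56 at 2 DAT, beside 9.25 and 9.67 at 1 DAT, in Col. The ahk3/ore12 arrays overlapped between days and the Col arrays did not, and the changes differed by 3.95 (SE 0.80, adjusted p = 0.0473, limma). IAA29, an Aux/IAA gene, read 11.82 and 12.83 at 2 DAT, beside 12.59 and 13 at 1 DAT, in ahk3/ore12. In Col it read 8.18 and 9.09 at 2 DAT and 11.57 and 12.17 at 1 DAT, a difference in change of 2.77 (adjusted p = 0.0478). The SAUR gene AT4G38860 differed by 3.51 (adjusted p = 0.0160), AT5G50335 by 4.11 (adjusted p = 0.0453) and RTFL18, of the ROTUNDIFOLIA-like small peptides, by 2.95 (adjusted p = 0.0127). Across 16 alternative settings these 5 genes were called in 5 to 12. The auxin exporters PIN3 and PIN7 differed by 1.62 and 1.74. PIN3 fell by 0.84 in ahk3/ore12, where it passed only without the second array at 2 DAT among the left-out fits, and by 2.46 in Col.

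A few chloroplast genes were also among the 148. PRK, the phosphoribulokinase of the Calvin cycle, read 12.88 and 13.07 at 2 DAT, beside 13.46 and 13.43 at 1 DAT, in ahk3/ore12, a change of -0.47 that did not pass there. It fell by 2.61 in Col, and the difference of 2.15 passed (adjusted p = 0.00252, limma). LHCB2.3, an antenna protein of photosystem II, differed by 2.56 (adjusted p = 0.0213). Of the 18 Calvin cycle genes 4 differed from Col (PRK, FBA2, SBPASE and GAPA2), all higher in ahk3/ore12, as were 0.374% of all genes. Also higher were 4 of 25 chloroplast ribosomal protein genes, 1 of 16 NDH genes and 1 of 21 antenna genes. By contrast 0 of 24 photosystem core, 0 of 23 tetrapyrrole synthesis and 0 of 10 photorespiration genes differed. Adenine phosphoribosyltransferases, which salvage adenine and can also act on cytokinin bases, were a list added after values were seen. Of the 5 genes on it 2 had a positive and 3 a negative change in ahk3/ore12, with a median of -0.075. The 2 positive ones rose, beside 1.49% of all genes. APT2 read 10.17 and 10.06 at 2 DAT against 9.10 and 9.05 at 1 DAT and rose by 1.04 (adjusted p = 0.00598), while APT3 rose by 0.66. In ahk3/ore12 APT2 was lost without the first array at 2 DAT or the second at 1 DAT, and APT3 whichever array was left out. The same step was -0.47 for APT2 and -0.64 for APT3 in Col, and the differences of 1.51 and 1.3 passed.

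**Figure D4:**
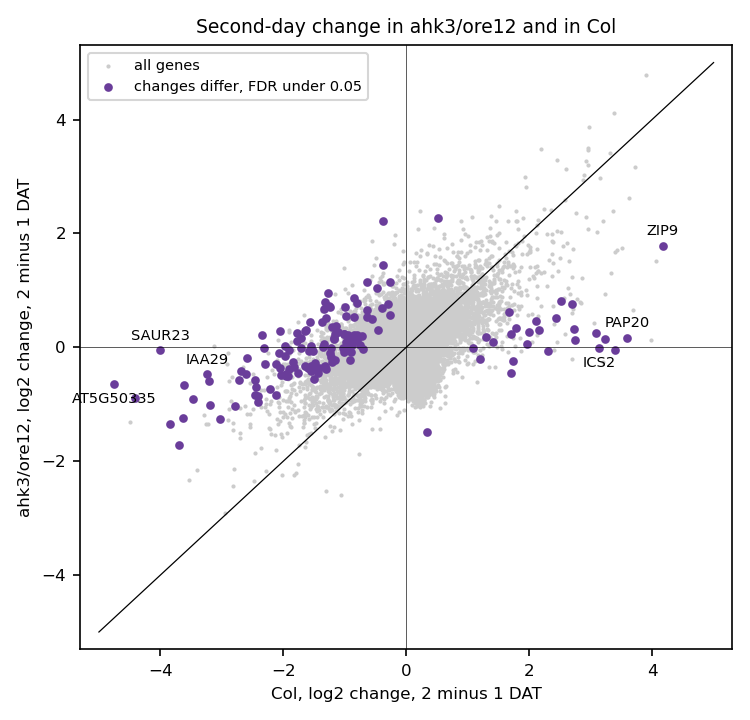
Log2 change between 2 and 1 DAT of each gene in ahk3/ore12 (vertical axis) and in Col (horizontal axis), with purple points for the 148 genes whose changes differed at an FDR under 0.05 and a line where the changes are equal. Many purple points lie near 0 on the ahk3/ore12 axis, to the left where Col fell (SAUR23 and IAA29 are named) and to the right where Col rose (PAP20 and ICS2).

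In the opposite direction, 5 genes had the largest gaps by the rule for named genes. ICS2, an isochorismate synthase, read 8.53 and 8.11 at 2 DAT, beside 8.38 and 8.30 at 1 DAT, in ahk3/ore12. In Col it read 11.96 and 11.81 at 2 DAT and 8.96 and 8.53 at 1 DAT, and the changes differed by -3.16 (SE 0.42, adjusted p = 0.00808, limma). In ein2/ore3 its level was 11.19 and 11.29 at 2 DAT and 11.40 and 11.08 at 1 DAT, already high on the first day. PAP20, a purple acid phosphatase, read 6.69 and 6.82 at 2 DAT, beside 6.58 and 6.59 at 1 DAT, in ahk3/ore12, against 10.99 and 9.72 at 2 DAT, beside 6.86 and 6.67 at 1 DAT, in Col, a difference of -3.42 (adjusted p = 0.0213). CYP76G1, a cytochrome P450, differed by -3.44 (SE 0.39, adjusted p = 0.00336) and was called in 15 of 16 alternative settings. The matrixin family gene AT2G45040 and the GDSL-type lipase family gene AT1G28650 differed by -3.09 and -2.84. ZIP9, a zinc transporter family member, rose in both genotypes, by 1.79 in ahk3/ore12 and by 4.17 in Col, and differed by -2.39 (adjusted p = 0.0464).

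Against ein2/ore3 the second-day change differed for 17 genes (0.0521%), in 13 (0.0398%) being higher in ahk3/ore12 and in 4 (0.0123%) lower. With the replicate block 104 passed. Without the second ein2/ore3 array at 2 DAT, the one that stood apart, 2 passed, of which 1 was among the 17, whereas without the first ein2/ore3 array at 2 DAT, which leaves the array that stood apart alone, 1975 passed. Leaving out either array at 1 DAT gave 1 (first) and 13 (second) in ein2/ore3 and 1 each in ahk3/ore12, and leaving out an ahk3/ore12 array at 2 DAT gave 5 (first) and 1 (second). Centring the arrays on their medians left 7 genes, of which 57.1% were higher in ahk3/ore12, against 76.5% of the 17. The 8 arrays alone gave 0 in limma, with 3692 at an unadjusted p under 0.05.

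PPT2, a translocator of phosphoenolpyruvate into plastids, was called in 13 of 14 alternative settings, while the other 8 genes named in this contrast were called in 5 to 9 of 15. It read 5.20 and 5.14 at 2 DAT, beside 5.35 and 5.45 at 1 DAT, in ahk3/ore12, against 5.97 and 5.31 at 2 DAT, beside 8.18 and 8.08 at 1 DAT, in ein2/ore3. In ahk3/ore12 the gene, at 10.86 and 10.84 at 0 DAT, was already near the floor of the array at 1 DAT, so that a further fall could not be measured there. The changes differed by 2.26 (adjusted p = 0.00166, limma). APT5, an adenine phosphoribosyltransferase, read 6.32 and 6.25 at 2 DAT, beside 6.92 and 6.69 at 1 DAT, in ahk3/ore12, against 6.65 and 6.46 at 2 DAT, beside 9.91 and 9.36 at 1 DAT, in ein2/ore3, a difference of 2.56 (adjusted p = 0.0365). AT5G27290 fell in both, with changes of -0.88 in ahk3/ore12 and -2.91 in ein2/ore3 (-2.855 without the array that stood apart), and differed by 2.03 (adjusted p = 0.0199). The transcribed pseudogene AT1G69140 differed by 2.15 (adjusted p = 0.0444). AT2G38380, one of the largest risers, read 9.37 and 10.04 against 6.34 and 6.50 in ahk3/ore12 and 7.13 and 7.12 against 6.54 and 6.39 in ein2/ore3, a difference of 2.63 (adjusted p = 0.0199).

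The 4 genes that were lower in ahk3/ore12 were TSPO, LTI65, AT5G40790 and AT1G48590. LTI65, also known as RD29B and induced by abscisic acid, read 9.09 and 9.25 at 2 DAT, beside 8.93 and 9.07 at 1 DAT, in ahk3/ore12. In ein2/ore3 it read 13.36 and 13.53 at 2 DAT and 11.14 and 11.65 at 1 DAT, and the changes differed by -1.88 (adjusted p = 0.0199, limma). TSPO, a membrane protein of the translocator family, read 8.91 and 9.18 at 2 DAT, beside 9.19 and 9.74 at 1 DAT, in ahk3/ore12, against 12.79 and 12.70 at 2 DAT, beside 10.84 and 10.89 at 1 DAT, in ein2/ore3, a difference of -2.30 (adjusted p = 0.0365). AT5G40790 and AT1G48590 differed by -2.27 and -1.21.

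Set among the other days, the genes with the largest second-day changes followed different courses in ahk3/ore12. The levels at 0, 1, 2 and 3 DAT share arrays between neighbouring steps and are given side by side with no test. AT4G30170 had means of 7.21, 7.35, 12.12 and 12.49 at 0, 1, 2 and 3 DAT in ahk3/ore12, 6.57, 6.94, 8.97 and 11.12 in ein2/ore3 and 6.85, 7.45, 11.35 and 10.29 in Col. In ahk3/ore12 its level moved on the second day and little before or after. MIR172a had means of 5.03, 6.35, 9.82 and 11.05 in ahk3/ore12 and 5.04, 6.37, 8.57 and 7.34 in Col, so that its Col level was lower at 3 than at 2 DAT while that of ahk3/ore12 was higher. The fallers RbcX1 and CIPK20 had moved further on the first day. RbcX1 had means of 12.95, 9.22, 7.05 and 6.34 in ahk3/ore12, and CIPK20 had 13.06, 9.90, 7.76 and 6.39. ATC had means of 6.34, 9.58, 6.98 and 7.05 in ahk3/ore12 and 6.10, 10.61, 9.55 and 9.22 in Col, a peak at 1 DAT in both. ICS2 stood at 8.97, 8.34, 8.32 and 9.22 in ahk3/ore12, and at 9.24, 8.74, 11.88 and 12.74 in Col. Over all 487 risers the median change was 0.20 between 0 and 1 DAT and 0.19 between 2 and 3 DAT. For the 249 fallers it was 0.17 and -0.41.

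**Figure D5:**
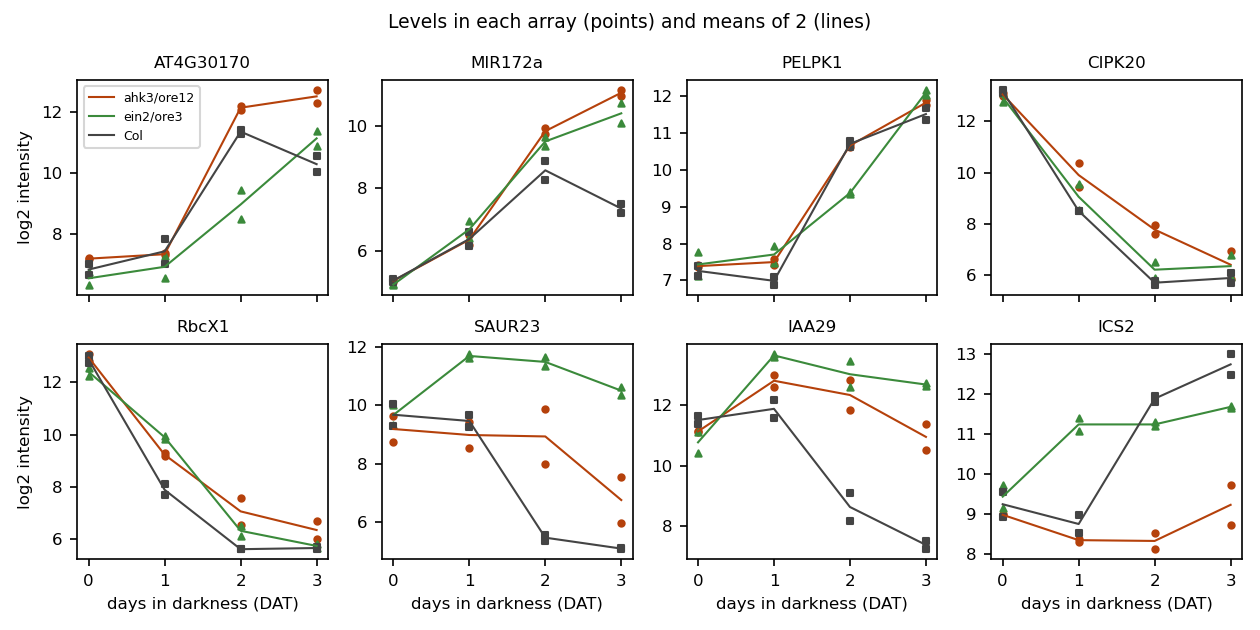
Log2 intensity (vertical axis) at 0, 1, 2 and 3 DAT (horizontal axis) of 8 genes in ahk3/ore12 (orange), ein2/ore3 (green) and Col (black), with a point for each array and lines through the means of 2. AT4G30170 moved between 1 and 2 DAT in ahk3/ore12 with means of 7.35 and 12.12, while ICS2 stayed between 8.32 and 9.22 there.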

How the data were processed

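Leaf RNA of 24 samples was hybridised, 1 colour each, to NimbleGen arrays of TAIR9 gene models, 12 arrays on each of 2 slides, so that replicate number and slide coincide. The authors normalized by RMA with quantile scaling and deposited an intensity for each transcript variant per array and a table of log2 values per gene. The log2 table equals the log2 sum of a gene's variant intensities within 0.00514, and was used as deposited. The alternative with the brightest variant used the 37118 variant intensities, each from 1 to 4 probes. RefSeq (TAIR10.1) names matched 31993 of 32627 genes, and the other 634 kept their locus.

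A linear model with a mean for each of 12 groups was fitted to all 24 arrays with limma 3.58.1 in R 4.3.3, without a block. This left 12 residual degrees of freedom, and p-values were adjusted by Benjamini-Hochberg over all genes. Errors are SE of the change, with a median of 0.20, and precision is limited by how many arrays there are. On simulated data for ahk3/ore12 at 2 against 1 DAT, run on 32627 genes, 49 of 100 changes of 1 and 87 of 100 changes of 2 were recovered. Samples with one replicate number share a slide. Their deviations correlated at 0.227 between 2 and 1 DAT in ahk3/ore12, and over 0.1 in 47 of 66 pairs of groups, with a median of 0.302. The correlation was 0.818 between 2 and 1 DAT in Col, and 0.798 between ahk3/ore12 and Col at 1 DAT. The block was therefore run as an alternative.

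The named genes were AHK3, the 12 largest rises and 12 largest falls past an FDR of 0.05 with arrays that did not overlap and a group mean of at least 8, up to 5 differences per direction from Col and from ein2/ore3, and the leading called members of each list. One gene of the largest rises is not reported here. Genes outside the rule, the 16 added lists and the RNA classes were chosen after their values were seen. Members and lists were chosen with earlier results of these data known. Alternatives covered the samples fitted, slide block, scaling, dim genes, variant choice, variance trend, FDR and arrays left out.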

Additional observations from a re-analysis of the deposited data

Results flagged for a closer look

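For 10 genes the second-day change in ahk3/ore12 differed from that in Col by a limma contrast of the changes (2 arrays per group and time). The difference was positive for AT5G50335 (4.105), SAUR23 (3.95), AT4G38860 (3.51), RTFL18 (2.95) and IAA29 (2.765). It was negative for CYP76G1 (-3.435), PAP20 (-3.42), ICS2 (-3.16), AT2G45040 (-3.085) and AT1G28650 (-2.84). A further 9 genes differed from ein2/ore3 in the same kind of contrast. They were AT2G38380 (2.625), APT5 (2.56), PPT2 (2.26), AT1G69140 (2.15) and AT5G27290 (2.03) with a positive difference, and TSPO (-2.3), AT5G40790 (-2.27), LTI65 (-1.88) and AT1G48590 (-1.205) with a negative one. All contrasts with ein2/ore3 include the array that stood apart.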

How the results depend on the processing

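Among the named genes and counts rerun under the alternatives no gene changed direction, while genes named outside the rule were not rerun. For ahk3/ore12 the 736 genes became 172 at an FDR under 0.01, 288 with a change of at least 1, 5 on the 4 arrays of the contrast, 341 on the 8 ahk3/ore12 arrays (262 of them shared), 1767 with the replicate block, and 111 to 299 with an array of the contrast left out. Quantile scaling, median centring, leaving out the dimmest 25% of genes, the brightest variant, and a variance trend gave 663 to 1051, and leaving out the second ein2/ore3 array at 2 DAT gave 885 genes and 42 list genes. For the difference from Col, 148 became 10 at an FDR under 0.01, 0 on the arrays of the contrast, 304 with the block, 98 with median centring, 234 with the variance trend and 7 to 176 with an array left out. The 17 differences from ein2/ore3 became 1 at an FDR under 0.01, 0 on the arrays of the contrast, 104 with the block, 7 with median centring and 1 to 1975 with an array left out. The 38 list genes became 0 on the arrays of the contrast, 15 on the 8 ahk3/ore12 arrays, 70 with the block and 3 to 25 with an array left out. Replicate numbers pair the samples by slide, and the block lost no call among 109 named values. Of the same values, 104 missed the threshold on the arrays of the contrast, where 2 arrays per group leave little to estimate spread. Dim genes lie near the array floor, so their changes may be understated. The cause of the other shifts was not tested.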
